A study of Homo sapiens with 6 samples.

Results

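The genes described here make cholesterol, take it up as lipoprotein or move it out of the cell, and they were followed in HL60, an established human promyelocytic leukemia line that matures toward granulocytes when given a retinoid. The starting list held 35 genes, and a gene was kept where a probe set of the Affymetrix array was annotated to it alone. This left 32 genes with 56 probe sets, out of 11963 such genes and 22283 probe sets in the whole table. CYP51A1 shares both of its probe sets with LRRD1 and was left out, and FDFT1 and NR1H2 were not analysed here. Tretinoin (all-trans retinoic acid) at 1 μmol/l in dimethyl sulfoxide (DMSO) was given for 5 days, and the vehicle condition received DMSO alone, with a final DMSO concentration of 0.1% in both. Each condition has 3 arrays. The study describes the arrays of a condition as parallel hybridizations of pooled labeled product, so all p-values below measure the spread between hybridizations and not between cultures. RNA came from bulk cultures, in which fewer cells of a type and less RNA per cell cannot be told apart.

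Cells build cholesterol from acetyl units through the mevalonate arm, which ends in farnesyl diphosphate, and the sterol arm, which closes the rings and trims them to cholesterol. The SREBP transcription factors, held back in the endoplasmic reticulum by INSIG proteins and carried to the Golgi by SCAP, switch on most of these enzymes and the lipoprotein receptors when sterol is scarce. When sterol is plentiful, LXR receptors switch on efflux genes such as the transporters ABCA1 and ABCG1, a program best known from macrophages.

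Signals are MAS5 units, each array multiplied to the mean of DMSO replicate 1, with values below 20 set to 20 (the floor). A gene is shown by its brightest probe set. It was tested with limma where it exceeded 20 on at least 3 arrays, and it was called at an adjusted p (Benjamini-Hochberg over all probe sets) under 0.05 with a change of at least 1.5-fold. Mean signal before scaling ran from 91.3 to 132.7 on tretinoin arrays and from 121.5 to 151.8 on DMSO arrays, and 54.9% to 60.1% of probe sets exceeded 20 on each array. Tretinoin replicate 2 was the dimmest and had a scale factor of 1.36. It was the highest of the 3 tretinoin arrays for 15 of 30 tested members. ACTB, whose 3' and 5' probe sets serve to judge RNA quality, had a 3'/5' ratio of 1.14 to 1.17 on tretinoin arrays and 1.38 to 1.42 on DMSO arrays. The same ratio for GAPDH leaned the other way, at 1.15 to 1.19 on tretinoin arrays and 1.06 to 1.17 on DMSO arrays, with overlap. Of 7 measured promyelocyte markers, MPO and 5 others exceeded 20 on every DMSO array, while KIT was at the floor on all 6 arrays. All 6 tested markers were lower in tretinoin, and the summed signal of the 7 was 331 to 389.9 on tretinoin arrays and 4171 to 4720 on DMSO arrays. ELANE, CTSG and PRTN3 exceeded 20 on at most 1 tretinoin array and entered the test only through their DMSO arrays. CD38, a surface enzyme that retinoids are known to raise in HL60, was 254, 243 and 249 on tretinoin arrays, against 22.3, 20 and 20 on DMSO arrays. It is among 8 treatment checks, of which 6 were higher in tretinoin. CD38 and TGM2 exceeded 20 on at most 1 DMSO array and entered the test only through their tretinoin arrays. RARB (log2 fold change -0.16) and CYP26A1 (0.71) were the checks not called.

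Of the 32 genes, 30 were tested, 5 were higher in tretinoin, 8 were lower and 17 were not called. MVD and SOAT1 did not exceed 20 on 3 arrays and have no test. Across all 8161 genes tested, 13.5% were called higher and 14.3% lower, 27.9% in all, and the median log2 fold change was -0.04. Without array scaling the calls leaned to falls, with 1142 probe sets higher and 2312 lower, against 1824 and 1850 with scaling. Synthesis enzymes had a median log2 fold change of -0.52, with 6 of 15 lower and 0 higher. Both uptake receptors were lower, at -1.84 and -1.45. Efflux and LXR genes had a median of 0.66, with 3 of 8 tested genes higher and 0 lower. POR, PLTP and CYP27A1 exceeded 20 on at most 1 DMSO array and entered the test only through their tretinoin arrays, and 1 efflux gene (ABCA1) was called higher where all 6 arrays had to exceed 20. The members' arrays did not overlap between conditions for 17 of 30 genes, against 46.3% of all genes tested.

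**Figure D1:**
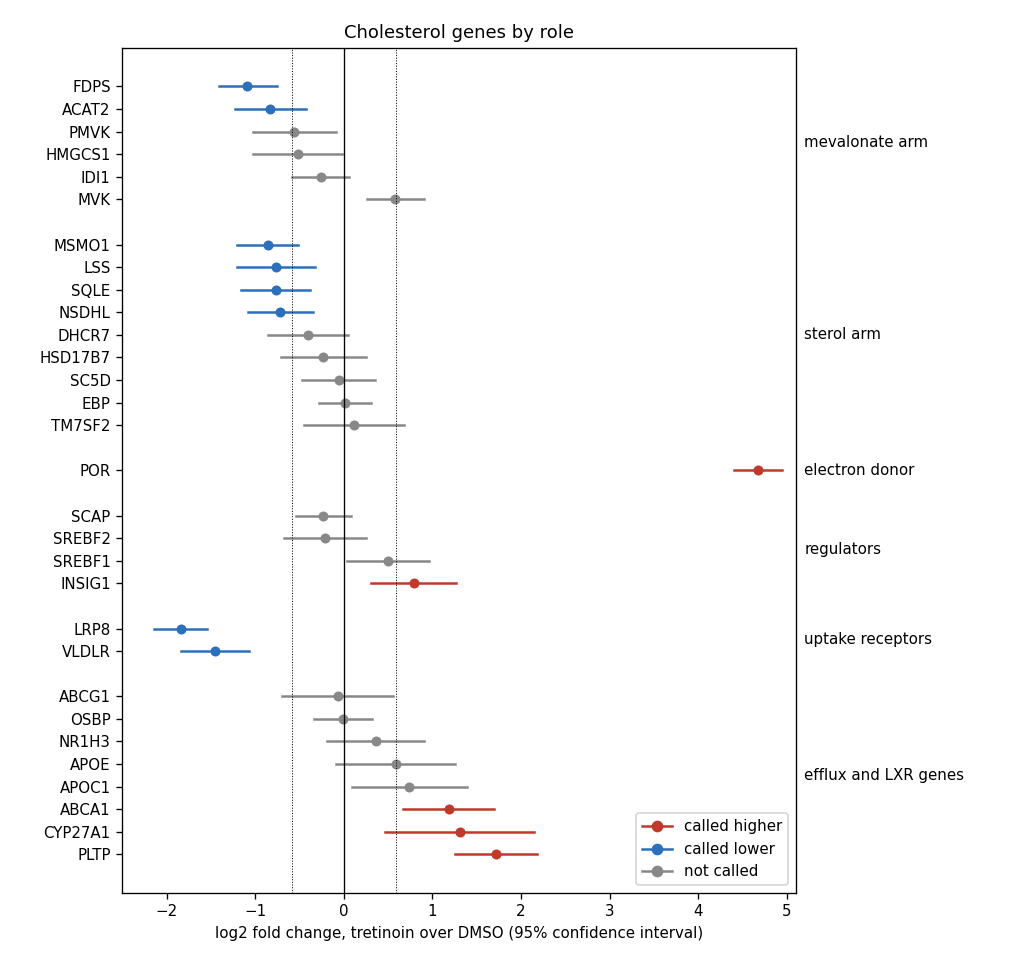
Log2 fold change (tretinoin over DMSO, n = 3 arrays each) of each tested gene, with bars for the 95% confidence interval, dotted lines at 1.5-fold, and genes grouped by role. Called falls lie among the synthesis enzymes and uptake receptors, called rises lie among POR, INSIG1 and the efflux genes, and POR stands at 4.68.

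In the mevalonate arm, FDPS and ACAT2 were lower and 4 of 6 tested genes were not called. FDPS, which makes farnesyl diphosphate, was 123, 115 and 116 on tretinoin arrays, against 290, 235 and 232 on DMSO arrays. No tretinoin array reached the lowest DMSO array, and FDPS fell 2.13-fold (log2 fold change -1.09 ± 0.14, SE; limma, adjusted p = 0.00123). ACAT2, the cytosolic thiolase that joins acetyl units, was 86.9, 110 and 85.3 in tretinoin, against 148, 160 and 194 in DMSO. It fell 1.78-fold (log2 fold change -0.83 ± 0.17; adjusted p = 0.00912 by limma), again with no overlap. HMGCS1, which makes HMG-CoA, averaged 42.8 ± 10.5 in tretinoin and 60.6 ± 7.82 in DMSO (SD, n = 3), and its log2 fold change of -0.52 was not called (limma, adjusted p = 0.11). Its other probe set stood at -0.66 and was also not called, at an adjusted p of 0.0564 by limma. PMVK, the phosphomevalonate kinase, averaged 69.5 ± 14.0 in tretinoin and 101.9 ± 16.8 in DMSO, and the conditions overlapped (limma, adjusted p = 0.0728). Without tretinoin replicate 2, where PMVK was highest of the 3, its log2 fold change was -0.71 and it was called at an adjusted p of 0.0349. Without array scaling PMVK (-0.76, adjusted p = 0.0275) and HMGCS1 (-0.73, adjusted p = 0.048) were both called lower by limma. IDI1, the isomerase that forms dimethylallyl diphosphate, had a log2 fold change of -0.26 on one probe set and -0.33 on the other. Neither was called, and both are of the kind whose probes can also bind other transcripts. MVD, the decarboxylase, was at the floor on all 6 arrays.

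MVK, the mevalonate kinase, was the synthesis gene that stood furthest on the other side. It was 209, 234 and 192 on tretinoin arrays, against 136, 152 and 136 on DMSO arrays, without overlap. Its log2 fold change of 0.58 ± 0.13 had an adjusted p of 0.0156 by limma but lay just under the 1.5-fold minimum, so it was not called. It was called with median scaling (0.59) and without DMSO replicate 2 (0.64), tretinoin replicate 1 (0.59) or tretinoin replicate 3 (0.65). Its adjusted p rose past 0.05 without array scaling (0.287, at a log2 fold change of 0.38), without DMSO replicate 1 (0.0529) and without DMSO replicate 3 (0.0505). Only this probe set of the 3 for MVK could be tested. The others exceeded 20 on too few arrays.

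In the sterol arm, MSMO1, LSS, SQLE and NSDHL were lower and 5 of 9 tested genes were not called. MSMO1, which removes methyl groups from the sterol ring, was 41.6, 38.7 and 44.3 on tretinoin arrays, against 64.9, 78 and 84.8 on DMSO arrays. Every tretinoin array lay below every DMSO array, and MSMO1 fell 1.83-fold (log2 fold change -0.86 ± 0.15, SE; limma, adjusted p = 0.00431). SQLE, the squalene epoxidase, was 79.1, 81.1 and 89.5 in tretinoin, against 158, 156 and 115 in DMSO. It fell 1.72-fold on this probe set (limma, adjusted p = 0.0108) and 2.20-fold on the next brightest (68.6, 70.9 and 66.9 in tretinoin, against 143, 152 and 160 in DMSO; adjusted p = 0.000489). Its dimmest probe set lay near the floor on all arrays and was not called.

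LSS, which folds squalene epoxide into lanosterol, was 73.3, 61.2 and 51.1 in tretinoin, against 95, 95.6 and 125 in DMSO. The conditions did not overlap and LSS fell 1.70-fold (limma, adjusted p = 0.0189). That call was lost without DMSO replicate 3 (adjusted p = 0.0562), without tretinoin replicate 3 (adjusted p = 0.0606) and without the filter on low values (adjusted p = 0.0742), at log2 fold changes of -0.64, -0.64 and -0.77. NSDHL, a sterol dehydrogenase, was 31.9, 25.6 and 24.9 in tretinoin, against 46, 49.1 and 40.1 in DMSO. It fell 1.64-fold (limma, adjusted p = 0.0115), close to the floor in tretinoin, and with a floor of 40 its log2 fold change was only -0.17 and was not called. With 16 added to every signal and no floor it was -0.49, under the fold minimum.

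DHCR7, the reductase of the last step, was 69.6, 104 and 69.3 on tretinoin arrays, against 94.8, 113 and 108 on DMSO arrays, and replicate 2 alone brought tretinoin into the DMSO range. DHCR7 was not called (log2 fold change -0.40, limma, adjusted p = 0.163), but its other probe set was lower 1.83-fold (45.5 ± 11.6 in tretinoin and 83.4 ± 13.9 in DMSO, SD, n = 3; adjusted p = 0.0216). Without tretinoin replicate 2 the brightest probe set was called too, at -0.60 with an adjusted p of 0.0233. HSD17B7, SC5D, EBP and TM7SF2, which act between lanosterol and cholesterol, had log2 fold changes of -0.23, -0.06, 0.01 and 0.11. All 4 had overlapping conditions, and TM7SF2 lay between 20 and 36.3 on every array. The interval for EBP, -0.28 to 0.31 at 95% confidence, leaves out a fall of the size seen for FDPS. The proliferation genes fell beside the enzymes, with 13 of 16 lower and 0 higher, and their summed signal was 1820 to 1870 on tretinoin arrays and 5739 to 6191 on DMSO arrays. The promyelocyte markers were lower as well, as given above. The part of either list in the fall of the enzymes and of the uptake receptors was not tested.

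POR, the flavoprotein that hands electrons to SQLE, CYP51A1 and the other microsomal P450 enzymes, was 532, 530 and 503 on tretinoin arrays, against 20, 20 and 21.2 on DMSO arrays. It exceeded 20 on only 1 DMSO array, so the 25.6-fold difference is a lower bound. Its direction was opposite to that of SQLE, an enzyme it serves.

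**Figure D2:**
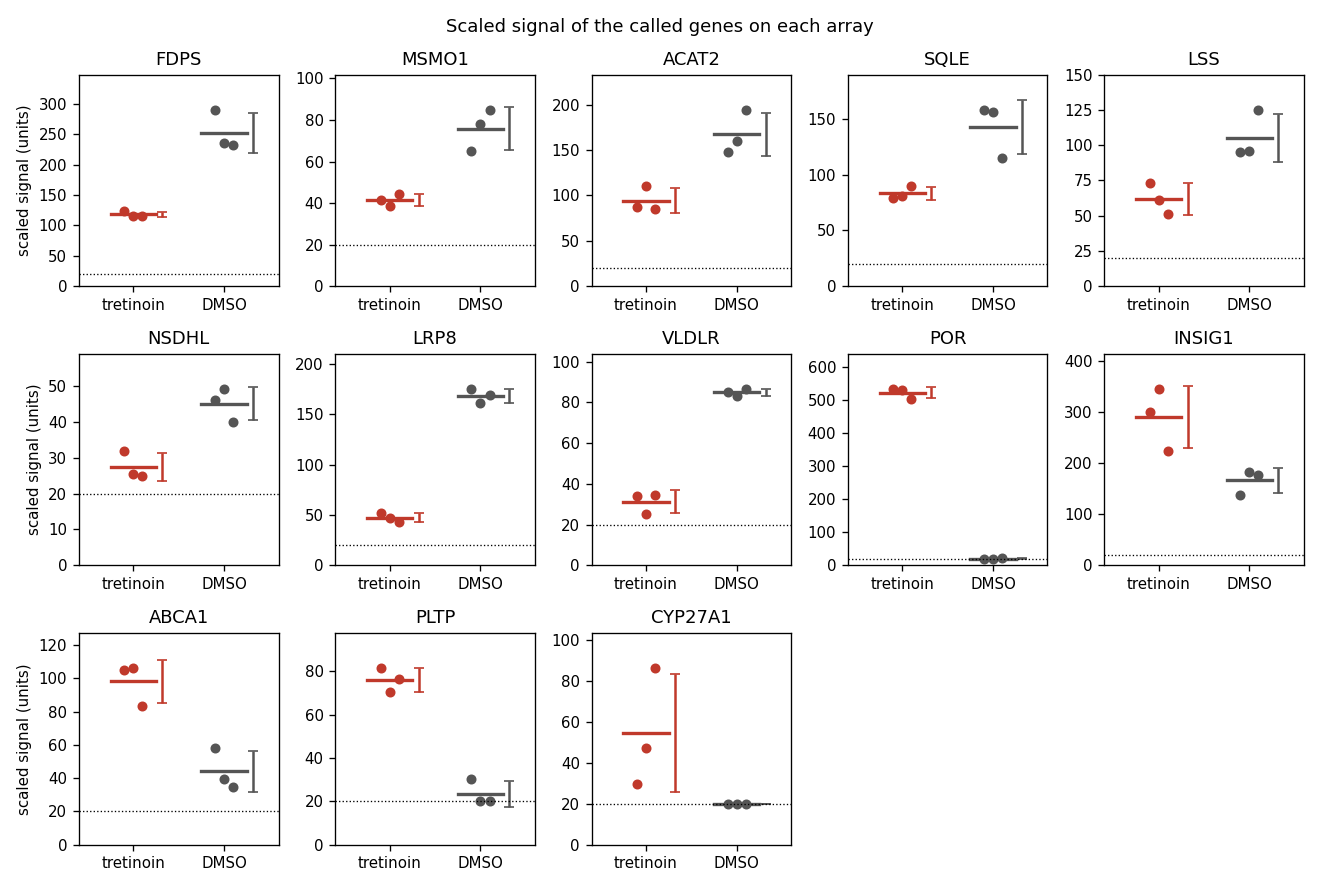
Scaled signal of the 13 called genes on each array (points), with condition means (bars) and SD (error bars, n = 3), on linear axes that start at 0. The dotted line marks the floor of 20, and no gene has overlapping conditions. The DMSO arrays of CYP27A1 all sit on the floor.

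Since the enzymes are known to share control through SREBP factors and the partner factor NF-Y, the promoter windows of the members (RefSeq, GRCh38.p14, 250 bases before to 50 after an annotated start) were searched on both strands for the NF-Y box CCAAT, the sterol regulatory element TCACNCCAC, the E-box CACGTG and the LXR element (the direct repeat named DR4). Windows were at hand for 30 of the 35 genes, and those without were ABCG1, ACAT2, FDFT1, POR and SQLE. Of 20 windows of 15 synthesis genes, 15 held CCAAT, against 34.6% of all 35116 windows. By gene, taking the window with the most boxes, 13 of 15 held it and 10 held it at least 2 times. Of all single windows, 10.8% held it at least 2 times. That share is not a like comparison, since a gene can have several windows.

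The stretches with the boxes are shown for 3 enzymes called lower and for MVK, which was not lower, so that the spacing of the boxes can be set beside the signals above. Capitals mark CCAAT or its reverse complement ATTGG, and all 4 lie upstream of the annotated start (FDPS at chr1:155308678-155308831, plus strand, MSMO1 at chr4:165327472-165327651, plus strand, NSDHL at chrX:152830823-152830995, plus strand, and MVK at chr12:109573572-109573764, plus strand).
FDPS: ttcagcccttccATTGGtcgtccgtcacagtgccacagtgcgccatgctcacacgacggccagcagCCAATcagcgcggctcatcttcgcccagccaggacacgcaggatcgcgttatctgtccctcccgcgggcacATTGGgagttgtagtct
MSMO1: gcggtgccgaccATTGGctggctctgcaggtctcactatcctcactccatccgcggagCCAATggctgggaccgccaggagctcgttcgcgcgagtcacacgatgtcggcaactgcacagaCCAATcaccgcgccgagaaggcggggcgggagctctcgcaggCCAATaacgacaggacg
NSDHL: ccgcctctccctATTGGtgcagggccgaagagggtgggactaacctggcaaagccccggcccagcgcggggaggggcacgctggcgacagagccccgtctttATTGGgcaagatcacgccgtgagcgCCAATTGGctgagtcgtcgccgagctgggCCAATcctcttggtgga
MVK: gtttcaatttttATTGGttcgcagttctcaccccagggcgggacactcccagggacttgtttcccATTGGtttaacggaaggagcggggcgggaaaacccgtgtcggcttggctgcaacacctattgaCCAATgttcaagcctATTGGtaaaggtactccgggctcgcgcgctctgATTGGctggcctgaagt
FDPS has 3 boxes in its window, MSMO1 has 4, and NSDHL and MVK have 5 each, of which the middle pair of NSDHL overlaps. LSS, also called lower but not shown, has only the box whose first base lies at -150 from the annotated start. The counts of MVK (log2 fold change 0.58) and NSDHL (-0.72) are equal only where both boxes of the overlapping pair are counted. HMGCS1, IDI1, EBP, SC5D, TM7SF2, DHCR7 and HSD17B7, which were not called, hold the box too, and PMVK, also not called, does not. The part of the boxes in any of these changes was not tested.

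The letters TCACNCCAC were found in 1.13% of all windows and in 1 of 41 windows of the members. That window belongs to SREBF2, the gene of the SREBP factor itself (capitals, chr22:41832960-41832992, plus strand).
SREBF2: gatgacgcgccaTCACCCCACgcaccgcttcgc
Many SREBP sites depart from these letters, and no match in a window says only that the letters are not there. The LXR element was searched only as an exact direct repeat. That repeat was in 0 of 41 windows of the members and in 7 of all windows (0.0199%). Sites that depart from the exact repeat were not searched for, so no match does not show that a promoter lacks an LXR site. This holds for ABCA1 and the other efflux genes too. E-boxes lay in 7 windows of the members, those of ABCA1, PLTP, LSS, SC5D, INSIG1 and SCAP, against 7.26% of all windows. The windows of VLDLR and LRP8 held none of these 4 motifs.

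**Figure D3:**
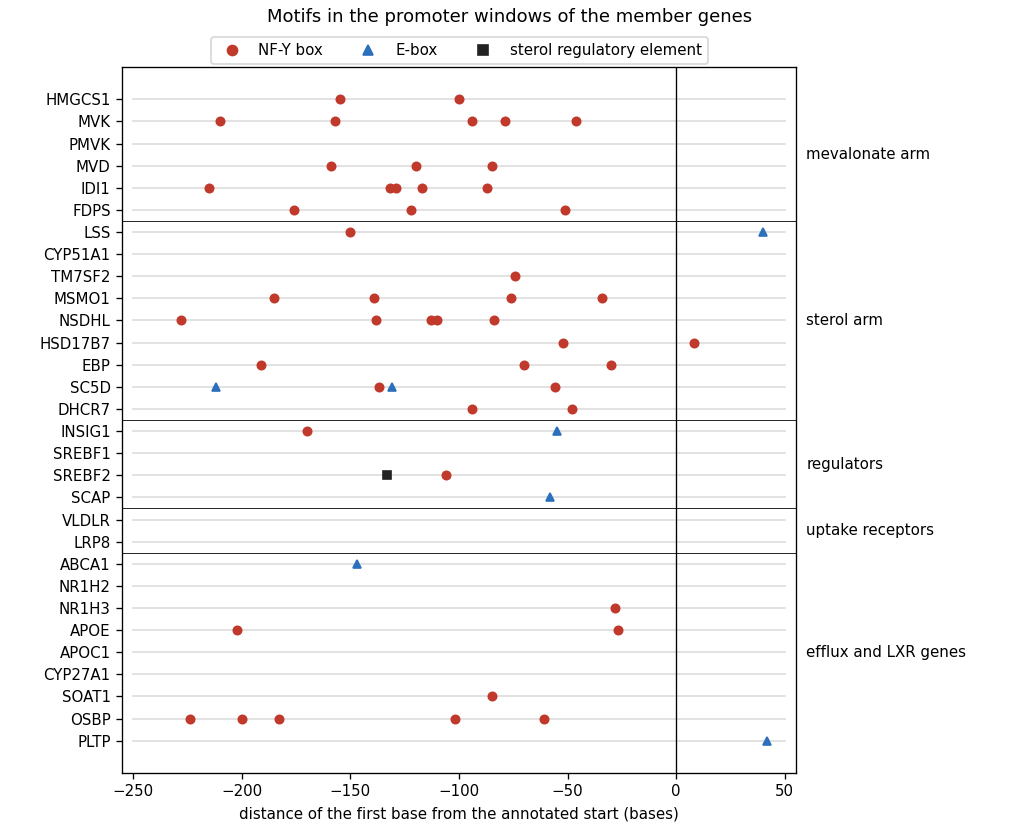
Distance of each motif's first base from the annotated start (bases) in the windows of 30 genes, grouped by role. Circles mark NF-Y boxes, triangles E-boxes and the square the sterol regulatory element, and genes with several annotated starts have their windows drawn on the same line. NF-Y boxes lie in most synthesis genes, and the lines of VLDLR and LRP8 are empty.

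Of the 4 members that regulate the pathway (INSIG1, SCAP, SREBF1 and SREBF2), INSIG1 was called higher and the others were not called. INSIG1, which holds SCAP and the SREBP factors in the endoplasmic reticulum, was 300, 344 and 224 on tretinoin arrays, against 138, 183 and 177 on DMSO arrays. Its lowest tretinoin array lay above its highest DMSO array, and it rose 1.75-fold (log2 fold change 0.79 ± 0.20, SE; limma, adjusted p = 0.0225). The call was lost without DMSO replicate 1 (adjusted p = 0.0699), tretinoin replicate 1 (0.0702) or tretinoin replicate 2 (0.056), without scaling of the arrays (0.103) and without the filter on low values (0.0926). Its next probe set, less scattered at 198.0 ± 10.5 in tretinoin and 106.8 ± 9.53 in DMSO (SD, n = 3), rose 1.85-fold with an adjusted p of 0.00216 by limma, and its dimmest was not called. INSIG1 is itself a known target of SREBP factors, as the enzymes are. In these cells it was higher in tretinoin while 6 enzymes were lower, and the cause of this difference was not tested.

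SREBF2, the SREBP gene most tied to cholesterol synthesis, was 108, 151 and 101 on tretinoin arrays, against 157, 136 and 120 on DMSO arrays, and the conditions overlapped. Its log2 fold changes were -0.21 and -0.32 on its 2 probe sets, and neither was called (limma, adjusted p = 0.476 and 0.164). SREBF1, whose product is better known for fatty acid synthesis, was 62.9, 41.3 and 51.4 in tretinoin, against 33.4, 33.2 and 42.3 in DMSO. It overlapped by a single array, tretinoin replicate 2, and was not called (log2 fold change 0.50; limma, adjusted p = 0.0927). Without that array it was called higher, at 0.66 with an adjusted p of 0.0382. SCAP, the sterol sensor and escort, averaged 121.5 ± 10.8 in tretinoin and 142.4 ± 10.2 in DMSO, and its log2 fold change of -0.23 was not called.

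Both uptake receptors on the list were lower in tretinoin, and they had the largest falls of the members. LRP8, also called ApoER2, binds apolipoprotein E and is known best from the brain. It was 51.7, 46.9 and 43.2 on tretinoin arrays, against 175, 161 and 169 on DMSO arrays. The conditions lay far apart, at a log2 fold change of -1.84 ± 0.13 (SE; limma, adjusted p = 0.000105). This probe set is among 90 picked by the study from these same arrays, so its direction is no independent evidence. The other LRP8 probe set, which is not among the 90, was 30.6, 20.5 and 20.7 in tretinoin, against 66.1, 56.8 and 52.4 in DMSO. It fell 2.44-fold (adjusted p = 0.00248 by limma). VLDLR, the closely related receptor for lipoproteins rich in triglyceride, was 34.2, 25 and 34.7 in tretinoin, against 84.8, 83.2 and 86.4 in DMSO. VLDLR fell 2.71-fold (log2 fold change -1.45 ± 0.16; limma, adjusted p = 0.000665), and both receptors were called lower in every alternative run.

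Of the efflux and LXR genes, ABCA1, PLTP and CYP27A1 were higher in tretinoin, and NR1H3, APOE, APOC1, ABCG1 and OSBP were not called. ABCA1, which loads cellular cholesterol onto apolipoprotein A-I, was 105, 106 and 83.4 on tretinoin arrays, against 57.9, 39.3 and 34.9 on DMSO arrays. All tretinoin arrays lay above all DMSO arrays, and ABCA1 rose 2.23-fold (log2 fold change 1.19 ± 0.22, SE; limma, adjusted p = 0.00606). Its second probe set was 82.8, 76.6 and 68.2 in tretinoin, against 20, 20.3 and 25.9 in DMSO, and rose at least 3.44-fold (adjusted p = 0.000251 by limma). The third was at the floor on all 6 arrays.

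PLTP, which transfers phospholipid between lipoproteins, was 81.4, 70.4 and 76.5 in tretinoin, against 30.4, 20 and 20 in DMSO. With 2 DMSO arrays at the floor, PLTP was at least 3.24-fold higher (limma, adjusted p = 0.000694). PLTP entered the test only through its tretinoin arrays, which limits the weight of this adjusted p. CYP27A1, the mitochondrial enzyme that turns cholesterol into 27-hydroxycholesterol, an LXR ligand, was 29.7, 47.3 and 86.2 in tretinoin and at the floor of 20 on all 3 DMSO arrays. The tretinoin arrays were widely spread, and the difference was at least 2.72-fold. Since CYP27A1 entered the test only through its tretinoin arrays, its adjusted p of 0.0287 by limma carries little weight. Without any single DMSO array the adjusted p was 0.0719 to 0.0737, and without any single tretinoin array CYP27A1 exceeded 20 on too few arrays to be tested. Without the filter on low values the adjusted p was 0.151.

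NR1H3, which encodes LXR alpha, was 27, 41.9 and 34.3 in tretinoin, against 20, 29 and 31.5 in DMSO, with overlap and without a call (log2 fold change 0.36; limma, adjusted p = 0.298). ABCG1, the transporter that passes sterol to high density lipoprotein, lay between 20 and 38.1 on all arrays, too near the floor for a change to be read. Its log2 fold change was -0.07, and -0.40 with a floor of 10, and neither was called. Its other probe set was at the floor throughout. APOE and APOC1, apolipoproteins that macrophages secrete and that accept effluxed sterol, averaged 55.2 ± 21.3 and 51.3 ± 8.94 in tretinoin, against 35.7 ± 7.12 and 31.8 ± 11.2 in DMSO (SD, n = 3). Neither was called (limma, adjusted p = 0.17 and 0.0839). Both values come from probe sets whose probes can bind other transcripts, and the remaining 2 APOE probe sets and 1 APOC1 probe set were at the floor on all 6 arrays. Without DMSO replicate 2, APOC1 was called higher, at a log2 fold change of 1.00 with an adjusted p of 0.0268. OSBP, which exchanges cholesterol between endoplasmic reticulum and Golgi, stood at a log2 fold change of -0.01 on its brightest probe set and 0.75 on the other, and neither was called. SOAT1, which esterifies cholesterol for storage, exceeded 20 on 2 tretinoin arrays, reaching 21.1, and on no DMSO array, too dim to test.

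Markers of macrophages, cells that use the efflux genes heavily, moved with them in part. Of 14 measured markers, 7 could be tested, of which 4 were higher in tretinoin and 0 lower. Their summed signal was 1864 to 1982 on tretinoin arrays and 376 to 381 on DMSO arrays. VSIG4, a complement receptor, made up most of that difference, at 1170, 1040 and 1130 in tretinoin, against 20, 23.1 and 33.1 in DMSO. ADGRE1, CD14 and CSF1R were the others that rose, and the remaining markers lay between 20 and 53.7 on every array. CSF1R was at the floor on every DMSO array and entered the test only through its tretinoin arrays. Not all genes of this list are particular to macrophages, so these rises do not show that macrophages were present. MARCO and TREM2 were at the floor on all 6 arrays, and CD163 did not exceed 23.5 on any. Their part in the rise of ABCA1, PLTP and CYP27A1 was not tested.

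Genes with several probe sets give a check within each array. Of the 17 such genes, INSIG1, ABCA1, SQLE and LRP8 were called the same way on 2 probe sets each. LSS and NSDHL were called on the brightest alone, where their second probe sets, at -0.51 and -0.40, lay near the floor. DHCR7 was called on its dimmer one alone. EBP and OSBP changed sign between probe sets without a call on any.

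**Figure D4:**
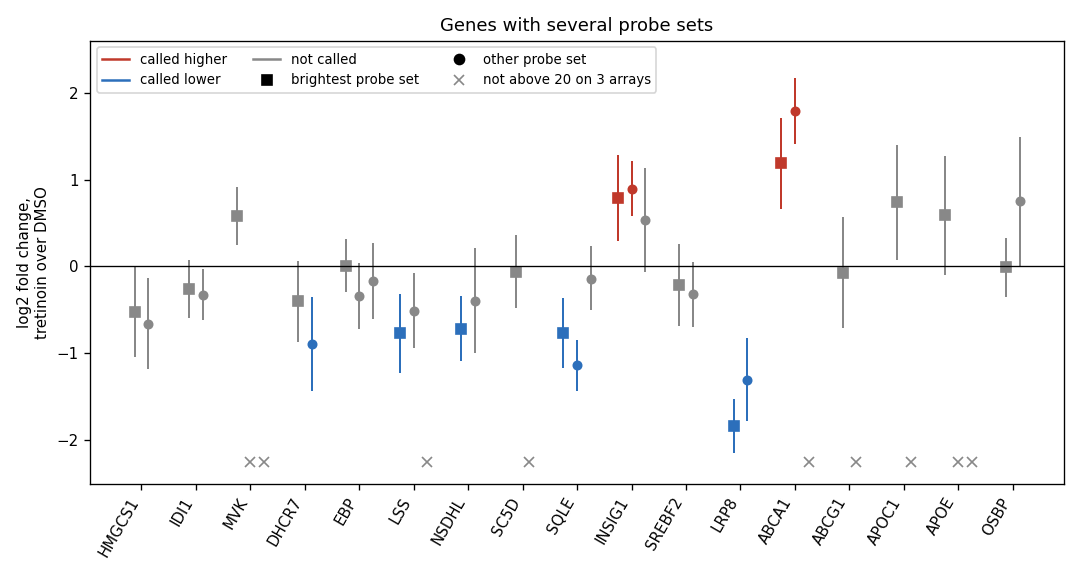
Log2 fold change (tretinoin over DMSO) of every probe set of the 17 genes that have several, with 95% confidence intervals. Squares mark the brightest probe set, circles the others, and crosses at the lower edge those that could not be tested. Both called LRP8 probe sets lie below 0, and both called ABCA1 and INSIG1 probe sets lie above it.

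A wider list of 52 genes of sterol and lipoprotein handling had 37 genes measured and 31 tested. Of these, 5 were higher in tretinoin, 7 were lower and 19 were not called, against 13.5% higher and 14.3% lower among all genes tested. Log2 fold changes ran from -1.29 to 4.28, with a median of 0.01. The share of rises was near that of all genes, so the values below describe single genes and not the list. The 5 that rose were CD36, a scavenger receptor for oxidized lipoprotein, LBR, the nuclear envelope protein with sterol reductase activity, INSIG2, and NPC1 and NPC2, which release cholesterol from lysosomes. CD36 was 375, 373 and 420 on tretinoin arrays and at the floor on all DMSO arrays, at least 19.5-fold higher. It entered the test, and so the count of rises, only through its tretinoin arrays. NPC2 was 958, 943 and 941 in tretinoin, against 104, 108 and 93.3 in DMSO. NPC1 was 92.9, 90.4 and 76.9 in tretinoin, against 61.8, 46.9 and 59.1 in DMSO, a 1.55-fold rise. INSIG2, the relative of INSIG1, was 73.1, 59.3 and 62.5 in tretinoin, against 20, 28.9 and 28.2 in DMSO, at least 2.53-fold higher, so both INSIG genes were higher (limma, adjusted p = 0.00165 for INSIG2). The 7 that fell were ACAT1, LIPA, MBTPS1, RXRA, SCD, TSPO and VDAC1, and those described next were picked after their values were seen. RXRA, a retinoid X receptor, was 74.6, 93.7 and 72.5 in tretinoin, against 184, 155 and 131 in DMSO (limma, adjusted p = 0.00613). MBTPS1, the protease that first cuts SREBP factors in the Golgi, was 47.9, 29.7 and 51 in tretinoin, against 91.2, 136 and 80.1 in DMSO (limma, adjusted p = 0.0127). SCD, a fatty acid desaturase and SREBP target, was 100, 134 and 101 in tretinoin, against 262, 217 and 231 in DMSO (limma, adjusted p = 0.00238). LIPA, the lysosomal lipase that frees cholesterol from its esters, was 58, 89.7 and 70.7 in tretinoin, against 147, 138 and 167 in DMSO (limma, adjusted p = 0.00488), without overlap and opposite in direction to NPC1 and NPC2.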

How the data were processed

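HL60 cells were profiled on Affymetrix GeneChip arrays, 3 per condition. The authors deposited MAS5 signals, linear intensities per probe set, taken from amplified and labeled RNA. They precede the scaling to equal overall intensity and the baseline of 20 that the methods describe, and the MAS5 version is not given in the sources used here. Here each array was scaled to the same mean as DMSO replicate 1, lower signals were raised to a floor of 20, and limma 3.58.1 in R 4.3.3 was run on log2 signal with no covariate. The 13374 probe sets that exceeded the floor on 3 or more arrays entered. The fit was tested on simulated data. Calls needed an adjusted p under 0.05 and 1.5-fold. Folds are ratios of condition means, and are lower bounds where an array of the lower condition is at the floor. The number of arrays limits the precision.

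Genes were named through GEO's platform annotation, which gave 19071 of 22283 probe sets 1 symbol, 1043 several and 2169 none. The brightest probe set by mean over 6 arrays stands for a gene. Every member is named. Of the wider list only genes in counts of 5 or fewer are named by rule, and of the marker lists counts and summed signals. Other names were picked after values were seen. The members and lists were chosen with earlier results of these data known. The lists of promyelocyte markers, macrophage markers, proliferation genes, treatment checks and lineages not expected in HL60 were counted likewise. Of 8 treatment checks 6 were higher, and of 4 tested genes of other lineages 0 were called. Alternatives changed scaling, floor, filter, variance model, pairing, arrays used, fold minimum and probe set. Python 3.11.15, pandas 2.3.3, numpy 2.4.6 and matplotlib 3.10.9 were used.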

Additional observations from a re-analysis of the deposited data

How the results depend on the processing

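Of the 13 called genes, 9 (ACAT2, FDPS, MSMO1, SQLE, LRP8, VLDLR, POR, ABCA1 and PLTP) were called in every alternative in which they could be tested at the 1.5-fold minimum, and LSS, NSDHL, INSIG1 and CYP27A1 were not. No called gene changed sign. Over all members and alternatives, 509 of 552 values kept direction and call, 17 lost the call, 11 gained one and 15 changed sign, the last all in genes that were not called. Without array scaling, which moved the median log2 fold change by -0.20, 1142 probe sets were higher in place of 1824 and 2312 lower in place of 1850, 10 members were lower in place of 8 and 8 synthesis enzymes in place of 6 (HMGCS1 at -0.73 and PMVK at -0.76 were added), EBP was at -0.19 and TM7SF2 at -0.09. With trimmed mean scaling EBP was at -0.01, and on second brightest probe sets EBP was at -0.34 and OSBP at 0.75. Synthesis enzymes called higher numbered 1 (MVK) with median scaling or with no fold minimum. Members called higher numbered 3 without the filter on low values and 2 where all 6 arrays had to exceed the floor, which also left 1 efflux gene, since POR, PLTP and CYP27A1 are then not tested. A fold minimum of 2 left 1012 probe sets higher and 860 lower, 3 members lower and 1 synthesis enzyme lower. With each array left out in turn, members called higher numbered 3 to 6, the 3 being without DMSO replicate 1, and synthesis enzymes called higher 0 to 1. Log2 fold changes then ran from -0.05 to 0.05 for EBP, -0.10 to 0.33 for TM7SF2, -0.08 to 0.06 for OSBP, -0.18 to 0.08 for SC5D and -0.23 to 0.18 for ABCG1. Where not said otherwise, the cause was not tested. The replicate numbers share no known source, and deviations of same-numbered arrays correlated at -0.0269, -0.0144 and 0.0656, so they do not pair the arrays, and not every array correlated best with its own number. With the replicate block, 5 members were higher and 7 lower, and LSS, at -0.77, had an adjusted p of 0.0572 by limma. Signals near the floor limit NSDHL, VLDLR, TM7SF2, ABCG1, NR1H3, POR, PLTP, CYP27A1, MVD and SOAT1. With a floor of 40, VLDLR was at -1.08 in place of -1.45 and PLTP at 0.93 in place of 1.72, and both were still called.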
